A study of Mus musculus with 12 samples.

Results

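The comparison set 4 spinal cords from mice with both alleles of Tardbp floxed in the presence of Cre (cKO, genotype Gfap-Cre; Tardbp-fl/fl) against 4 from mice with 1 floxed allele and the same Cre (cHet, genotype Gfap-Cre; Tardbp-fl/+). Tardbp encodes the RNA-binding protein TDP-43. Because both groups carried Cre, the contrast asks what the second deleted allele adds, apart from the transgene. The groups also differ in the number of floxed alleles, which this design cannot tell apart from the deletion. All genes with a mean of at least 1 normalized TPM over these 8 libraries were taken, which gave 15251 of 36121 deposited genes. Ly6c2 (mean 1.0003 TPM) and Ttll6 (1.003 TPM) lay just inside that limit, and Olfr1264 (0.998 TPM) and Ptprh (0.996 TPM) just outside it. TPM is a transcript's share of all transcripts, a level already divided by transcript length.

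The mice of the series were C57BL6 and 3 months old, and each group held 2 males and 2 females. A further 4 mice carried 2 floxed alleles and no Cre (control, genotype Tardbp-fl/fl), and entered the same fit, and their levels are given for some genes. Control and cHet differ both in Cre and in the number of floxed alleles. Whole spinal cord RNA was sequenced, so every level is an average over all cell types. The Gfap promoter drives Cre in astrocytes, and some Gfap-Cre lines also recombine in neural progenitors. The line is not named in the labels, and mice with Cre and no floxed allele were not analysed here.

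TDP-43 binds UG-rich RNA in the nucleus and controls splicing, polyadenylation and stability of many transcripts. It also binds its own messenger RNA and lowers it, and its loss from the nucleus is a hallmark of amyotrophic lateral sclerosis. Astrocytes of the spinal cord clear glutamate and potassium, supply lactate, secrete matrix, and change their gene expression when tissue is injured. Cre that removes an exon can leave a shortened transcript that is still counted.

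Levels below are means ± SD over 4 mice, and log2 differences are cKO minus cHet on the scale log2(TPM + 0.5) with the SE of the fit. That scale understates changes of low genes. In each gene whose 8 library values are printed, no cKO library overlapped a cHet library. A gene was called when its adjusted p from limma, fitted over all 12 libraries, was under 0.05. Tardbp (chromosome 4, 148612382 to 148627019, minus strand, GRCm38) was at 178, 173, 172 and 158 TPM in cHet replicates 1 to 4 and at 150.3, 150.2, 151 and 140.5 TPM in cKO replicates 1 to 4. The level fell from 170.4 ± 8.64 to 148 ± 5.06 TPM (log2 difference -0.20 ± 0.04, adjusted p = 0.0158). Without cKO replicate 4, the lowest, the adjusted p was 0.0521. In control mice Tardbp was at 171 ± 6.73 TPM. The level in cHet, with 1 floxed allele and Cre, differed from control by less than the spread between mice. The exon that Cre removes was not examined, since the table holds 1 value per gene.

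The authors' normalized TPM of a library summed to 1002460 ± 18688 in cHet and 1031670 ± 12645 in cKO (exact two-sided permutation test, p = 0.0571). Transcripts of the mitochondrial genome made up 17.2% ± 0.886 of the sum in cHet. In cKO they made up 19.6% ± 0.689, a difference with an exact permutation p of 0.0286, the smallest that 4 against 4 can give. Correlations between libraries over the 15251 genes were 0.980 to 0.986. The first principal component of the 8 libraries, 19.9% of their variance, placed all cKO libraries above all cHet libraries, and the second, 17.3%, placed all females above all males. Read depth is unknown, since TPM keeps none.

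Between cKO and cHet 765 of 15251 genes were called (5.02%), of which 368 rose (2.41%) and 397 fell (2.6%). The counts of called genes in each list below are to be read beside these shares. The median size among called genes was 0.32 on the log2 scale, and 103 genes (0.675%) were called and differed by at least 1.5-fold. The median log2 difference of all genes was 0.0049. More genes, 7926 or 52%, had a log2 difference above 0 than below. In 1747 genes (11.5%) the 4 cKO libraries did not overlap the 4 cHet libraries, lying above them in 936 (6.14%) and below them in 811 (5.32%), and this held for 741 of the 765 called genes. By the same fit 0 genes were called between cHet and control (smallest adjusted p = 0.0860, and 1723 genes, 11.3%, at an unadjusted p under 0.05). Between cKO and control 1362 genes (8.93%) were called, a contrast that shares the cKO mice with this one.

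**Figure D1:**
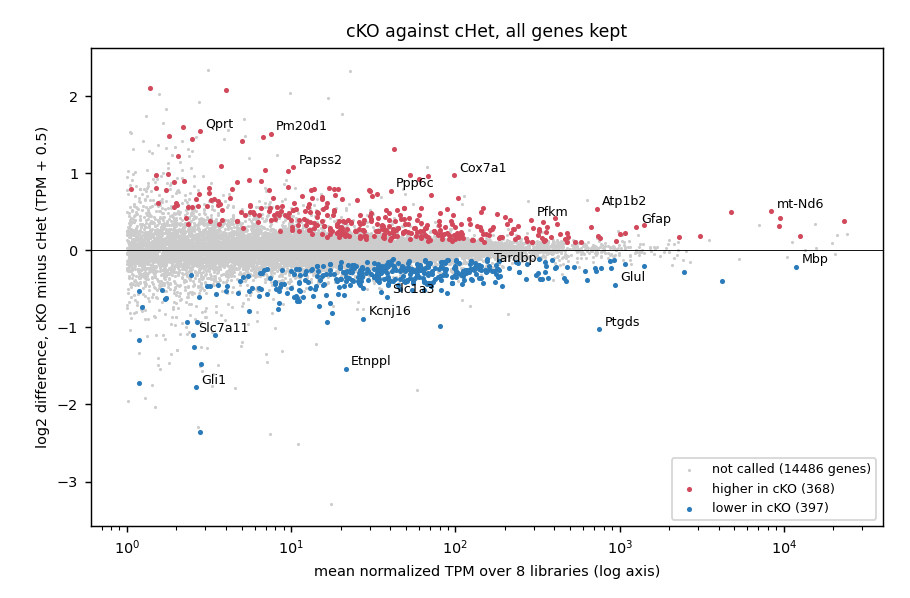
Each point is 1 of the 15251 genes, with its mean normalized TPM over the 8 libraries on a log axis and its log2 difference, cKO minus cHet, on the vertical axis. Of the called genes 368 lie above 0 (red) and 397 below (blue). Low genes with large differences such as Gli1 and Qprt stand beside abundant ones with smaller differences such as Mbp and Glul.

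The astrocyte genes did not move one way. Of 18 astrocyte markers 7 rose and 3 fell, against 2.41% and 2.6% of all genes, with a median log2 difference of 0.16. The 2 glutamate transporters of astrocytes moved in opposite directions. Slc1a3 (GLAST) was at 43.3, 48.1, 47.6 and 45.9 TPM in the cHet libraries and 29.6, 29, 30.4 and 31.8 TPM in the cKO libraries, and fell from 46.2 ± 2.17 to 30.2 ± 1.23 TPM (log2 difference -0.61 ± 0.04, adjusted p = 2.22e-05). Slc1a2 (GLT-1) rose from 323 ± 2.75 to 397 ± 7.63 TPM (log2 difference 0.30 ± 0.02, adjusted p = 3.35e-05). All cKO libraries were low in the first and high in the second. Glul, the glutamine synthetase that turns captured glutamate into glutamine, fell from 1086 ± 69.4 to 795 ± 16.8 TPM (log2 difference -0.45 ± 0.04, adjusted p = 1.73e-04).

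Ion handling was split as well. Atp1b2, the glial beta subunit of the sodium-potassium pump, was at 582, 566, 592 and 618 TPM in cHet and 808, 841, 909 and 877 TPM in cKO, and rose with an adjusted p of 2.78e-05 and a log2 difference of 0.54 ± 0.04. Kcnj16, a subunit of inward-rectifier potassium channels, was at 33.6, 37.2, 38.7 and 33.2 TPM in cHet and 19.2, 17.8, 19.7 and 19.3 TPM in cKO. It fell with a log2 difference of -0.89 ± 0.05 (adjusted p = 7.61e-06), whereas its partner Kcnj10 (Kir4.1) was at 247 ± 19.8 and 253 ± 9.96 TPM (adjusted p = 0.823). Grin2c, an NMDA receptor subunit, fell from 7.13 ± 0.824 to 3.9 ± 0.16 TPM (log2 difference -0.79 ± 0.09, adjusted p = 5.35e-04). The gap junction gene Gja1 (connexin 43) fell from 202 ± 16.9 to 159 ± 14 TPM (log2 difference -0.35 ± 0.07, adjusted p = 0.0106), and the other astrocyte connexin, Gjb6, was at 120.02 ± 18.2 and 102 ± 13.5 TPM (adjusted p = 0.292). The difference between the members of such a pair was not tested.

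Among the remaining astrocyte markers, Acsbg1, which activates long fatty acids, rose from 152 ± 3.9 to 187 ± 5.62 TPM (log2 difference 0.30 ± 0.03, adjusted p = 2.79e-04). Aldoc, the glial aldolase, rose with a log2 difference of 0.32 ± 0.05 (adjusted p = 0.00142). Gfap, the intermediate filament protein that marks reactive astrocytes, rose from 1123 ± 56.8 to 1391 ± 135 TPM (log2 difference 0.30 ± 0.06, adjusted p = 0.017). That call was lost with the 8 mice alone and without cKO replicate 2 (adjusted p up to 0.052). Aldh1l1 also passed (log2 difference 0.28 ± 0.07, adjusted p = 0.033), but not in 7 of 22 alternatives (adjusted p up to 0.102). Values that missed the threshold were those of Aqp4 (log2 difference 0.27 ± 0.09, adjusted p = 0.102), Sox9 (log2 difference 0.41 ± 0.13, adjusted p = 0.0963) and S100b (log2 difference -0.06 ± 0.04, adjusted p = 0.514). The summed level of the 18 markers ranged from 8234 to 8418 TPM in cHet and from 8850.5 to 9512 TPM in cKO. In whole tissue, fewer cells of a type and less RNA per cell cannot be told apart.

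**Figure D2:**
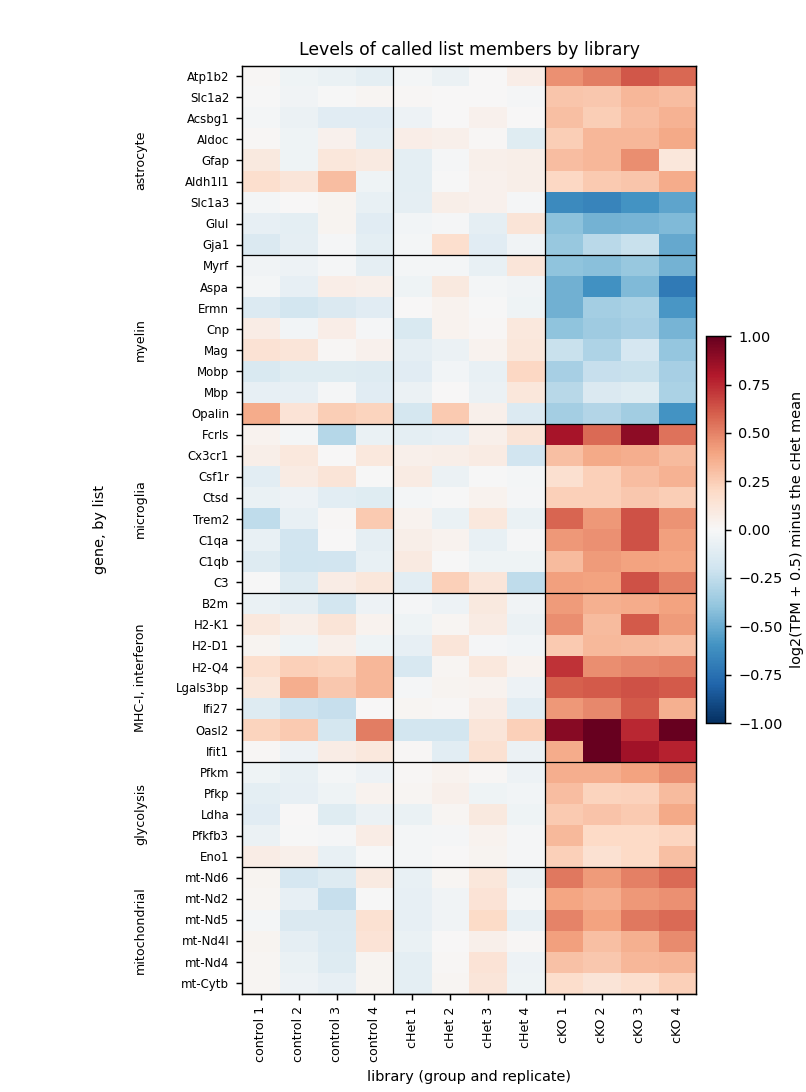
Colours give log2(TPM + 0.5) of a gene in a library minus its mean over the 4 cHet libraries, for called genes of the lists named at the left, with colours saturated beyond 1 and -1. The 4 cKO columns form a block of mostly 1 colour in each gene, while most control and cHet cells stay near 0.

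Other genes fell further than any of the markers. Etnppl, an astrocyte-enriched enzyme that breaks down phosphoethanolamine, was at 35.1, 31.6, 25.8 and 36.7 TPM in cHet and 9.05, 11.1, 11.2 and 11.5 TPM in cKO (log2 difference -1.54 ± 0.17, adjusted p = 3.32e-04). Every cHet library lay above every cKO library. Ptgds, the brain prostaglandin D synthase and a major protein of cerebrospinal fluid, was at 932, 936, 913 and 1269 TPM in cHet and 526, 462, 454 and 533 TPM in cKO (log2 difference -1.03 ± 0.12, adjusted p = 3.78e-04). cHet replicate 4 stood far above its group in that gene, and the call held without it. Car3, a carbonic anhydrase, fell from 3.8 ± 0.46 to 1.32 ± 0.367 TPM (log2 difference -1.26 ± 0.17, adjusted p = 0.00129), and Mc5r, a melanocortin receptor, fell from 4.4 ± 1.36 to 1.29 ± 0.589 TPM (log2 difference -1.48 ± 0.25, adjusted p = 0.00437). Fgl2, a secreted fibrinogen-like protein, fell from 3.65 ± 0.102 to 1.67 ± 0.0409 TPM (log2 difference -0.93 ± 0.07, adjusted p = 3.39e-05), and Itih3, a hyaluronan-binding serum protein, fell from 108 ± 8.59 to 54.2 ± 4.82 TPM (log2 difference -0.99 ± 0.08, adjusted p = 5.47e-05). A2m, a protease inhibitor, had a log2 difference of -0.81 ± 0.11 (adjusted p = 0.00111), and Rasal1, an inactivator of Ras, one of -0.93 ± 0.12 (adjusted p = 9.34e-04).

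Hedgehog signalling ends in Gli transcription factors, and Gli1 transcription is itself a readout of the pathway, which in spinal cord acts from neurons onto astrocytes. Gli1 (chromosome 10, 127329882 to 127341974, minus strand, GRCm38) was at 2.98, 4.47, 6.22 and 6.11 TPM in control, 3.94, 3.39, 4.73 and 5.19 TPM in cHet and 0.639, 0.608, 0.87 and 1.66 TPM in cKO. All cKO libraries lay below all cHet and control libraries, and the ratio of the means of cKO and cHet was 0.219 (log2 difference -1.78 ± 0.25, adjusted p = 0.00135). Hhip, a target that captures hedgehog ligands at the cell surface, was at 6.42, 6.21, 6.69 and 7.33 TPM in cHet and 4.77, 5.38, 4.11 and 3.65 TPM in cKO (log2 difference -0.53 ± 0.10, adjusted p = 0.00773).

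Of 14 hedgehog genes these 2 fell and 0 rose, against 2.6% of all genes called lower, with a median log2 difference of -0.03. The receptor Ptch1, also a target, was at 36.3 ± 3.14 TPM in cHet and 32.6 ± 1.74 TPM in cKO (log2 difference -0.15 ± 0.06, adjusted p = 0.205). The ligand Shh was at 5.76 ± 0.801 and 6.6 ± 0.82 TPM (adjusted p = 0.382), and Smo, which passes the signal inward, at 11.6 ± 0.75 and 11.5 ± 0.584 TPM (adjusted p = 0.942). Gli2 and Gli3 had log2 differences of 0.20 ± 0.11 and 0.09 ± 0.11 and missed the threshold.

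Cystine enters cells through an exchanger made of Slc7a11 (xCT), which carries the amino acids, and Slc3a2, which brings it to the membrane. Slc7a11 (chromosome 3, 49892526 to 50443614, minus strand, GRCm38) was at 3.13, 3.21, 3.4 and 3.36 TPM in control, 3.09, 4.06, 3.23 and 4.2 TPM in cHet and 1.43, 1.43, 1.36 and 1.44 TPM in cKO. The cKO libraries were nearly alike and all lay below the other 8 (log2 difference -1.10 ± 0.10, adjusted p = 9.97e-05, ratio of means 0.389). Slc3a2, which also serves other amino acid carriers, rose from 108 ± 4.71 to 136 ± 6.98 TPM (log2 difference 0.33 ± 0.06, adjusted p = 0.00866). Of 18 genes of cystine import and glutathione these were the 2 called, and the median log2 difference was 0.04. Without cHet replicate 2 the rises were 2. The enzymes that build glutathione did not pass: Gclc (log2 difference 0.08 ± 0.03, adjusted p = 0.244), Gclm (log2 difference -0.03 ± 0.05, adjusted p = 0.865) and Gss (log2 difference -0.07 ± 0.05, adjusted p = 0.571).

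The Slc7a11 promoter is shown because its messenger fell while the rest of its list mostly did not pass, and because it is a known target of the amino acid response. The window runs from 250 bases before to 50 after the start of transcription in RefSeq, build GRCm38.p6, at chr3:50443564-50443863, minus strand. Capitals mark matches of TGATGNAA, the amino acid response element, on either strand.
Slc7a11: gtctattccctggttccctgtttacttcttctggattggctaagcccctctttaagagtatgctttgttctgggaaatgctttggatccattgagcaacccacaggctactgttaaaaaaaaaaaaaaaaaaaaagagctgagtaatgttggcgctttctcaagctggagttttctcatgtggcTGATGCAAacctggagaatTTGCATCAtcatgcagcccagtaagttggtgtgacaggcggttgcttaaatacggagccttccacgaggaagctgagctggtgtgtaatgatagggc
The window held 2 matches, at 66 and 47 bases before the start, facing each other. Of 32851 RefSeq promoter windows of 300 bases 3.97% held the motif, and of the genes kept that have a window 2.79% (310 of 11129). A gene was counted when any of its windows held the motif. Of genes with a window, 3.66% of those called higher (10 of 273) and 3.32% of those called lower (10 of 301) had it. Genes that report the integrated stress response and endoplasmic reticulum stress gave 0 calls of 16, with a median log2 difference of -0.07, and 1 fall without cHet replicate 3.

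Genes of energy metabolism rose at several points. Of 17 glycolytic genes 7 rose and 0 fell, against 2.41% and 2.6% of all genes, and the median log2 difference was 0.12. Pfkm, a subunit of phosphofructokinase, which commits sugar to glycolysis, was at 251, 254, 250.02 and 239.5 TPM in cHet and 319.7, 319.6, 329 and 344 TPM in cKO, with no overlap (log2 difference 0.40 ± 0.03, adjusted p = 2.78e-05). Pfkp, another subunit, rose from 205 ± 6.16 to 247 ± 9.02 TPM (log2 difference 0.27 ± 0.04, adjusted p = 0.00129), while the liver-type subunit Pfkl had a log2 difference of 0.12 ± 0.05 (adjusted p = 0.168). Pfkfb3, which makes an activator of that enzyme, rose from 44.2 ± 0.816 to 52.2 ± 2.2 TPM (log2 difference 0.23 ± 0.04, adjusted p = 0.00393). Ldha, which forms lactate, rose from 89.5 ± 4.58 to 109.97 ± 4.46 TPM (log2 difference 0.30 ± 0.04, adjusted p = 0.00192), and Eno1 (enolase) rose from 444 ± 5.61 to 518 ± 23.3 TPM (log2 difference 0.22 ± 0.04, adjusted p = 0.00472). Ldhb rose less (log2 difference 0.12 ± 0.03, adjusted p = 0.0209) and lost its call in 4 of 22 alternatives. Aldoc is counted in this list and among the astrocyte markers. After rescaling each library without its mitochondrially encoded genes, 11 of the 17 rose.

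NAD is made from tryptophan through quinolinate, from nicotinic acid, or from recycled nicotinamide. Qprt, which converts quinolinate, was at 1.16, 0.771, 1.66 and 1.18 TPM in cHet and 5.04, 3.67, 4.27 and 4.53 TPM in cKO (log2 difference 1.55 ± 0.20, adjusted p = 7.71e-04). Naprt, which starts from nicotinic acid, was at 7.45, 9.97, 7.17 and 7.87 TPM in cHet and 11.2, 14.2, 13 and 12.2 TPM in cKO (log2 difference 0.62 ± 0.12, adjusted p = 0.0103). Neither gene had overlapping groups. Nampt, which recycles nicotinamide, was at 24.5 ± 0.68 and 22.6 ± 0.588 TPM (adjusted p = 0.265). With Cd38, an NAD-consuming enzyme (log2 difference 0.24 ± 0.05, adjusted p = 0.0125), 3 of 12 measured genes of the list rose and 0 fell. Over all genes 2.41% were called higher and 2.6% lower. Of the 17 genes of the list 5 were below the level filter.

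The enzymes of the hexosamine and sulfation routes supply sugar and sulfate to matrix proteoglycans. Gfpt2, which makes glucosamine phosphate, was at 2.31, 2.28, 1.89 and 2.41 TPM in cHet and 5.6, 4.58, 5.16 and 5.83 TPM in cKO (log2 difference 1.09 ± 0.11, adjusted p = 1.43e-04). Papss2, which makes the sulfate donor, was at 7.2, 7.37, 5.89 and 5.39 TPM in cHet and 13.5, 15.5, 14.4 and 12.9 TPM in cKO (log2 difference 1.07 ± 0.12, adjusted p = 4.30e-04). Its paralog Papss1 fell from 72.3 ± 2.85 to 63.3 ± 2.37 TPM (log2 difference -0.19 ± 0.04, adjusted p = 0.0124). These were the 3 calls among 13 genes, whose median log2 difference was 0.01.

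The matrix list was also led by single members. Of 17 measured genes of the perineuronal matrix 2 rose and 0 fell, with 1 fall without cHet replicate 4 or cKO replicate 3. Adamts9, a protease that cuts proteoglycans, was at 2.17, 2.44, 2.51 and 2.85 TPM in cHet and 7.97, 7.46, 7.49 and 7.05 TPM in cKO (log2 difference 1.42 ± 0.11, adjusted p = 3.39e-05). Ncan, the proteoglycan neurocan, was at 11.2, 12.2, 13 and 12.4 TPM in cHet and 21.9, 20.9, 24.1 and 20.1 TPM in cKO (log2 difference 0.81 ± 0.08, adjusted p = 1.43e-04). All cKO libraries lay above all cHet libraries in both. The related core proteins Acan, Bcan and Vcan had log2 differences of 0.18 ± 0.07, 0.22 ± 0.07 and -0.22 ± 0.16 and missed the threshold.

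**Figure D3:**
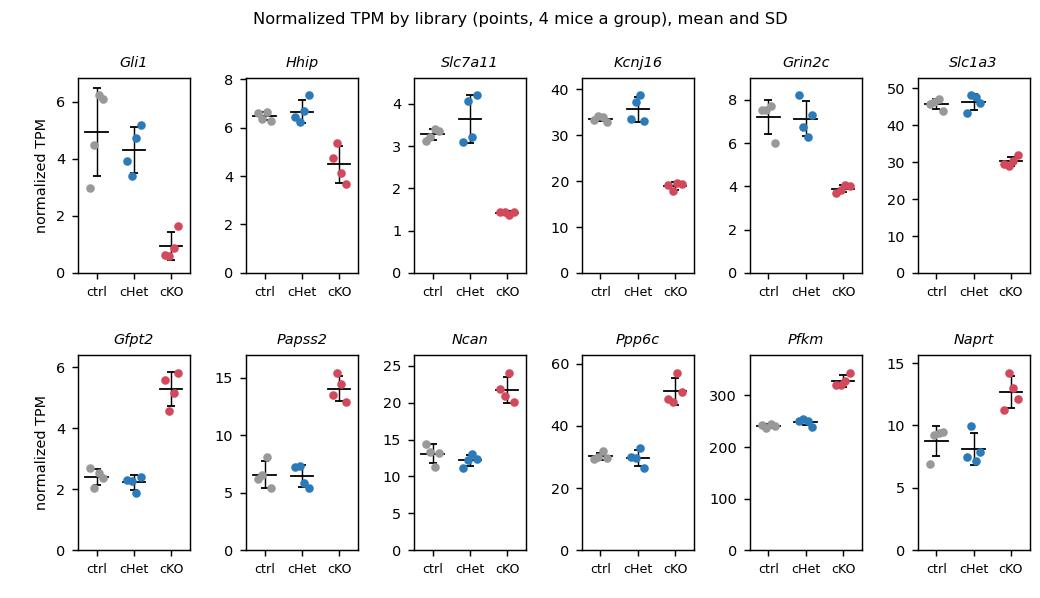
Points are normalized TPM in each of the 12 libraries for 12 genes, grouped as control (ctrl), cHet and cKO, with the mean and SD as bars and each vertical axis starting at 0. In all 12 panels the 4 cKO points lie apart from the 4 cHet points, while the control points lie near the cHet points.

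Fatty acid oxidation gave 4 rises and 0 falls among 20 genes, against 2.41% and 2.6% of all genes. The median log2 difference was 0.02. Acox2, the peroxisomal oxidase of branched chains and bile acid precursors, rose from 0.713 ± 0.292 to 2.9 ± 0.894 TPM (log2 difference 1.48 ± 0.26, adjusted p = 0.00627). Its cHet mean was below 1 TPM, so it passed the level filter only through its cKO level. Cpt1a, which admits fatty acids to mitochondria, rose from 23.3 ± 0.945 to 28.3 ± 0.893 TPM (log2 difference 0.28 ± 0.04, adjusted p = 0.00152), and Hadhb, of the trifunctional protein, rose from 126 ± 5.61 to 156 ± 4.55 TPM (log2 difference 0.31 ± 0.05, adjusted p = 0.00216). Acaa2 passed as well (log2 difference 0.26 ± 0.06, adjusted p = 0.0224) but lost its call in 4 of 22 alternatives. Slc25a34, a mitochondrial carrier, was at 4.75, 2.74, 2.94 and 3.03 TPM in cHet and 11.1, 9.52, 9.71 and 9.87 TPM in cKO (log2 difference 1.47 ± 0.14, adjusted p = 1.44e-04), and Pm20d1, a secreted enzyme that joins fatty acids to amino acids, rose from 3.63 ± 0.446 to 11.3 ± 1.84 TPM (log2 difference 1.51 ± 0.13, adjusted p = 6.62e-05).

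The 13 protein genes of the mitochondrial genome had a median log2 difference of 0.31. Of these 6 rose and 0 fell, against 2.41% and 2.6% of all genes. They were mt-Nd2, mt-Nd4, mt-Nd4l, mt-Nd5 and mt-Nd6, all subunits of complex I, and mt-Cytb of complex III. mt-Nd6, the one encoded on the other strand, rose from 6946 ± 421 to 9869 ± 397 TPM (log2 difference 0.51 ± 0.06, adjusted p = 5.61e-04), and mt-Nd5 rose from 3978 ± 364 to 5610.4 ± 272 TPM (log2 difference 0.50 ± 0.07, adjusted p = 0.00193). The call of mt-Cytb was lost in 15 of 21 alternatives (adjusted p up to 0.232). Nuclear copies of mitochondrial genes can share their reads, so these levels are uncertain in that respect. The nuclear subunits of cytochrome c oxidase gave 1 call among 14, Cox7a1, which was at 57.3, 73.1, 70.2 and 64.7 TPM in cHet and 129.7, 140.1, 138 and 114 TPM in cKO (log2 difference 0.97 ± 0.10, adjusted p = 2.00e-04). Its control level was 50.2 ± 6.75 TPM, below cHet in the mean (cHet minus control 0.40 on the log2 scale, adjusted p = 0.192). Without cHet replicate 2 the list gave 2 calls. Its paralog Cox7a2 was at 466 ± 26.8 and 468 ± 8.83 TPM.

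Myelin genes fell together. Of 22 genes of mature oligodendrocytes, the cells that wrap axons in myelin, 15 fell and 0 rose, against 2.6% of all genes called lower, and the median log2 difference was -0.35. Their summed level ranged from 25448 to 29719 TPM in cHet and from 21200.4 to 24007 TPM in cKO. Myrf, the transcription factor that switches myelin genes on, was at 55.2, 55.2, 53.2 and 61 TPM in cHet and 42.3, 41.9, 42.9 and 40.3 TPM in cKO (log2 difference -0.42 ± 0.04, adjusted p = 1.88e-04). Aspa, which releases acetate from N-acetylaspartate, fell from 106 ± 4.79 to 71.8 ± 5.95 TPM (log2 difference -0.56 ± 0.06, adjusted p = 2.00e-04). Cnp and Ermn, which shape the myelin sheath, had log2 differences of -0.39 ± 0.05 (adjusted p = 9.03e-04) and -0.43 ± 0.05 (adjusted p = 5.63e-04).

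Mbp, the most abundant of them, was at 12826 ± 719 TPM in cHet and 11047 ± 724 TPM in cKO, and its call (log2 difference -0.22 ± 0.05, adjusted p = 0.0296) was lost in 6 of 22 alternatives. With the 8 mice alone 7 of the 22 fell. Without cKO replicate 1 the count was 8 and without cKO replicate 4 it was 7.

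Earlier cells of the lineage had a median of -0.23 over 14 markers of precursors and newly formed oligodendrocytes. Of the 14 markers 3 fell and 0 rose, against 2.6% and 2.41% of all genes. They were Bcas1 (log2 difference -0.22 ± 0.04, adjusted p = 0.00886), Enpp6 (log2 difference -0.37 ± 0.08, adjusted p = 0.0219) and Olig2 (log2 difference -0.30 ± 0.07, adjusted p = 0.0416). Bcas1 and Enpp6 mark cells that are beginning to myelinate. The calls of Enpp6 and Olig2 were lost in 5 of 22 and 14 of 22 alternatives, and 1 of the 14 fell without cHet replicate 1 or 3 or cKO replicate 1 or 4. Without cHet replicate 4 the median was -0.14. Of 22 genes of cholesterol synthesis, on which myelin depends, 4 fell and 0 rose (median -0.15), against 2.6% of all genes called lower. Among the 4 were Fdps, Fdft1 and Srebf2. The calls of these 3 were each lost in 6 to 10 of 22 alternatives. Of the 22 genes 9 fell without cHet replicate 1, 2 without control replicate 2 or cHet replicate 4, 1 without cKO replicate 3, and 0 without cHet replicate 2 or 3 or cKO replicate 1 or 2. Among Schwann cell genes, whose cells make myelin in the roots, 4 of 7 were measured, of which Fxyd1 rose (log2 difference 0.29 ± 0.05, adjusted p = 0.00527) and Pmp22 fell (log2 difference -0.17 ± 0.03, adjusted p = 0.012).

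**Figure D4:**
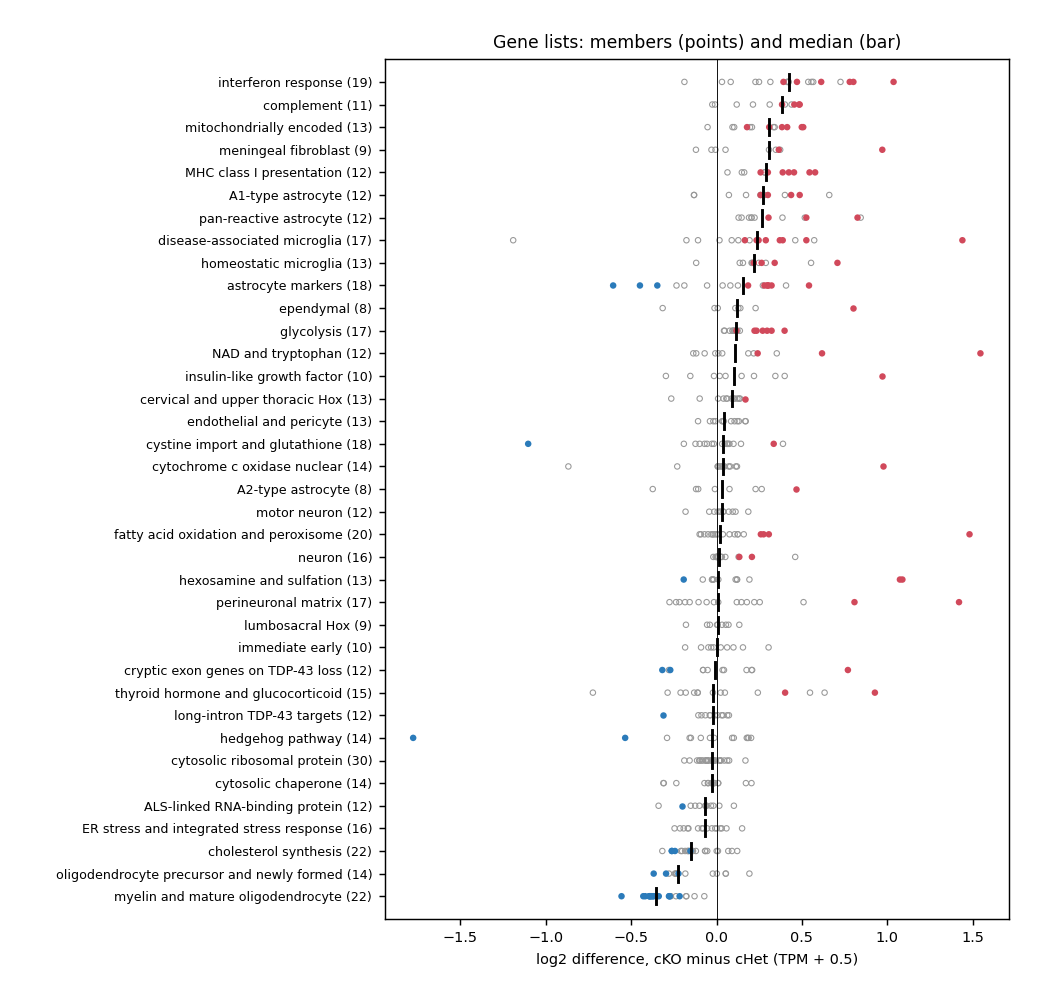
Rows are gene lists with the number of genes measured, the horizontal axis is the log2 difference, cKO minus cHet, and black bars are medians. Filled points are called genes (red higher, blue lower) and open points are not called, with called genes on the left in the myelin list and on the right in the complement, MHC class I and interferon lists. Lists of blood, other leukocyte, Schwann and cell division genes are left out.

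Microglia, the resident immune cells of the cord, had higher marker levels. Of 13 homeostatic microglia genes 4 rose and 0 fell (median 0.22), against 2.41% and 2.6% of all genes. The summed level of the 13 ranged from 251 to 274 TPM in cHet and from 305 to 327 TPM in cKO. Fcrls was at 8.02, 8.12, 8.93 and 9.48 TPM in cHet and 15.7, 13, 16.5 and 12.8 TPM in cKO (log2 difference 0.71 ± 0.10, adjusted p = 0.00129). Cx3cr1, the fractalkine receptor, rose from 16.8 ± 1.49 to 21.4 ± 0.578 TPM (log2 difference 0.34 ± 0.06, adjusted p = 0.00559). Csf1r, the receptor for their survival factor, also passed (log2 difference 0.26 ± 0.06, adjusted p = 0.0208), though not in 4 of 22 alternatives.

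Genes of the disease-associated microglial state gave 8 rises and 0 falls among 17 measured of 19 (median 0.23). Over all genes 2.41% were called higher and 2.6% lower. Gpnmb, a membrane glycoprotein of phagocytes, was at 1.14, 0.923, 1.14 and 1.19 TPM in cHet and 3.42, 4.11, 4.89 and 3.09 TPM in cKO (log2 difference 1.44 ± 0.17, adjusted p = 5.12e-04). Trem2, the lipid receptor that drives this state, rose from 8.27 ± 0.511 to 12.1 ± 0.869 TPM (log2 difference 0.53 ± 0.10, adjusted p = 0.00773). It has a second row with identical values in the table. The proteases Ctsd (log2 difference 0.25 ± 0.02, adjusted p = 1.40e-04) and Ctsb (log2 difference 0.17 ± 0.03, adjusted p = 0.00809) also rose. Lgals3, a secreted lectin and the member with the lowest log2 difference, named after its values were seen, was at 5.67, 4.6, 13.1 and 5.98 TPM in cHet and 3.62, 2.5, 2.7 and 2.09 TPM in cKO. It missed the threshold (log2 difference -1.19 ± 0.33, adjusted p = 0.0642), with no overlap of groups and cHet replicate 3 the highest. Without control replicate 3 the list gave 1 fall. Without cHet replicate 4 the list gave 5 rises and without cKO replicate 3 it gave 5.

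Complement tags cells and synapses for removal, and its first component is made by microglia. Of 11 measured genes 4 rose and 0 fell, against 2.41% and 2.6% of all genes, with a median log2 difference of 0.38. C1qa was at 69.5, 68.6, 63.3 and 66.2 TPM in cHet and 90.3, 92, 104 and 88.8 TPM in cKO (log2 difference 0.48 ± 0.06, adjusted p = 4.67e-04). C1qb rose from 69 ± 3.16 to 90.2 ± 2.999 TPM (log2 difference 0.38 ± 0.04, adjusted p = 2.71e-04), C1qc rose from 50.5 ± 4.34 to 69.3 ± 3.12 TPM (log2 difference 0.46 ± 0.06, adjusted p = 0.00141), and C3, the central component, rose from 25.5 ± 3.95 to 35.7 ± 2.79 TPM (log2 difference 0.49 ± 0.10, adjusted p = 0.0131). C4b was at 38.9 ± 7.26 and 52.5 ± 5.56 TPM and just missed the threshold (adjusted p = 0.0506).

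MHC class I molecules show peptides to T cells and pair with beta-2 microglobulin, encoded by B2m. Of 12 genes of this route 7 rose and 0 fell (median 0.29), against 2.41% and 2.6% of all genes. Without cKO replicate 2 the rises were 4. B2m was at 185, 179.6, 199.6 and 181 TPM in cHet and 249.8, 238, 240.5 and 247 TPM in cKO (log2 difference 0.39 ± 0.04, adjusted p = 1.87e-04). It is also counted among the rises of the disease-associated microglial list. H2-K1 rose from 38.9 ± 1.74 to 53.5 ± 4.6 TPM (log2 difference 0.45 ± 0.06, adjusted p = 6.74e-04), H2-D1 rose from 77.9 ± 4.7 to 96 ± 1.8 TPM (log2 difference 0.30 ± 0.04, adjusted p = 0.00129), and H2-Q4 rose from 5.98 ± 0.495 to 8.96 ± 0.823 TPM (log2 difference 0.54 ± 0.08, adjusted p = 0.00145). These genes are near-copies, so their reads can be split among them. H2-T23, Tap1 and Psmb9 completed the calls, and these were lost in 3 of 22, 12 of 21 and 11 of 21 alternatives.

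Interferons are secreted signals that induce antiviral genes. Of 19 measured interferon genes 6 rose and 0 fell, against 2.41% and 2.6% of all genes, with a median of 0.42. Oasl2, a sensor-family protein, was at 3.74, 3.73, 4.73 and 5.18 TPM in cHet and 8.51, 12.9, 7.6 and 9.12 TPM in cKO (log2 difference 1.04 ± 0.18, adjusted p = 0.00456). Ifit1, which binds foreign RNA caps, was at 2.14, 1.94, 2.42 and 2.02 TPM in cHet and 2.89, 5.65, 4.21 and 3.97 TPM in cKO (log2 difference 0.80 ± 0.15, adjusted p = 0.00829). Lgals3bp, a secreted glycoprotein, rose from 13.1 ± 0.379 to 20.2 ± 0.243 TPM (log2 difference 0.61 ± 0.05, adjusted p = 6.59e-05) and Ifi27 rose from 150.3 ± 7.98 to 209 ± 15.7 TPM (log2 difference 0.47 ± 0.06, adjusted p = 9.75e-04), while Ifi27l2a lost its call in 9 of 22 alternatives. The log2 difference of cHet minus control, a contrast with 0 calls, was -0.27 for Lgals3bp, -0.20 for Oasl2 and -0.04 for Ifit1.

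Promoters of 3 of these genes are printed because all 3 rose and hold a motif known to respond to interferon. The windows are RefSeq, build GRCm38.p6, from 250 bases before to 50 after the start, at chr19:34640639-34640938, plus strand (Ifit1), chr2:122147437-122147736, plus strand (B2m) and chr17:36032652-36032951, minus strand (H2-T23). Capitals mark matches of the interferon-stimulated response element, taken as 2 copies of GAAA with 2 bases of any kind between them, on either strand.
Ifit1: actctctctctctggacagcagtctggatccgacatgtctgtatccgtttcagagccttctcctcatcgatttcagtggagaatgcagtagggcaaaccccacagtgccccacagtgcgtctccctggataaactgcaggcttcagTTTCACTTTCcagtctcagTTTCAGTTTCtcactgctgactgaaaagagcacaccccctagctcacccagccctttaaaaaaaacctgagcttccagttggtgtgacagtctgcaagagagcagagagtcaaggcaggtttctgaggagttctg
B2m: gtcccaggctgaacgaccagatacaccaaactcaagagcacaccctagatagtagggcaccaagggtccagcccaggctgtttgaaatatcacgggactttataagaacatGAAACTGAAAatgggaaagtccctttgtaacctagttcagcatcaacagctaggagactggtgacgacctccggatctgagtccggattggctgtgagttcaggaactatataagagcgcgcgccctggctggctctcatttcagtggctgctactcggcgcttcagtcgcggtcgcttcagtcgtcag
H2-T23: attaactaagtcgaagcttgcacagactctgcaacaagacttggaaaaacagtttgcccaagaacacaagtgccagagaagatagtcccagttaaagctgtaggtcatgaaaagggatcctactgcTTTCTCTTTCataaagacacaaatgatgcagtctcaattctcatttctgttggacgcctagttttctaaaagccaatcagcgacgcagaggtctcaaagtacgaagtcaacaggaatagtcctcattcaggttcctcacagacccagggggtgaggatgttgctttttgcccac
Ifit1 held 2 matches, at 104 and 85 bases before the start, B2m held 1 at 139 and H2-T23 held 1 at 124. The motif was in 3.44% of the 32851 windows and in 3.67% of the genes kept that have a window (408 of 11129). A gene was counted when any of its windows held the motif. Of genes with a window, 5.86% of those called higher (16 of 273) and 3.65% of those called lower (11 of 301) had it. In the interferon list 7 of 13 genes with a window (53.8%) had it, and Ifit1 was the called gene among those 7. In the MHC class I list 2 of 10 genes with a window had it. A match is a description of the letters and not a measured site.

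Other blood cells were looked at beside these results. Of 12 markers of T cells, B cells, neutrophils and macrophages outside the parenchyma 3 reached a mean of 1 TPM and 0 were called. Their summed level over all 12 ranged from 3.84 to 8.99 TPM in cHet and from 9.05 to 13.8 TPM in cKO, and without the neutrophil genes S100a8 and S100a9 from 3.56 to 5.22 TPM and from 2.40 to 4.54 TPM. None of the 12 was at 0 in all 8 libraries. The summed level of 5 red cell genes, 4 of them globins, ranged from 816 to 1889.8 TPM in cHet and from 1069.7 to 5123 TPM in cKO, with cKO replicate 4 the highest. Without that library 8 of 17 disease-associated microglial genes, 5 of 11 complement genes, 5 of 12 MHC class I genes and 5 of 19 interferon genes rose. The part of neutrophil transcripts in these results was not tested.

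Reactive astrocyte genes have been grouped as common to injuries, as A1-type or as A2-type. Of 12 common ones 3 rose, Gfap, Aspg and Serpina3n, and 0 fell (median 0.26), against 2.41% and 2.6% of all genes. Serpina3n, a secreted protease inhibitor, was at 35.7, 38.1, 38.3 and 32 TPM in cHet and 50.03, 48.5, 51.2 and 58.6 TPM in cKO (log2 difference 0.53 ± 0.07, adjusted p = 0.00115). Of 12 A1-type genes 4 rose (median 0.27), namely C3, H2-D1, H2-T23 and Srgn, against 2.41% of all genes called higher. C3 is also counted in the complement list, and H2-D1 and H2-T23 in the MHC class I list. Without cKO replicate 1 or 2 the A1-type rises were 2. Of 8 A2-type genes 1 rose, Emp1 (log2 difference 0.47 ± 0.10, adjusted p = 0.0219), which lost its call without cHet replicate 3 or 4 or cKO replicate 3 (adjusted p up to 0.0636). The series' own title names an A1-like state, so these lists are not independent of the study.

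Igfbp2, which binds insulin-like growth factors, was at 34.8, 36.5, 37 and 34.2 TPM in cHet and 76.9, 64.3, 75.4 and 65.4 TPM in cKO (log2 difference 0.97 ± 0.08, adjusted p = 4.89e-05), and was the 1 call among 10 genes of that system. Meningeal fibroblasts also express it: the sum of their 9 measured markers ranged from 67.4 to 75.2 TPM in cHet and from 103 to 119.9 TPM in cKO, and without Igfbp2 from 32.6 to 41 TPM and from 37.9 to 43.9 TPM. Dcn, another of those markers, rose from 11.3 ± 0.663 to 14.6 ± 0.906 TPM (log2 difference 0.36 ± 0.09, adjusted p = 0.0354), which did not hold in 7 of 22 alternatives. Hsd11b1, which regenerates active glucocorticoid inside cells, rose from 41 ± 2.78 to 78.5 ± 5.84 TPM (log2 difference 0.93 ± 0.06, adjusted p = 1.19e-05), 1 of 2 rises among 15 genes of thyroid hormone and glucocorticoid action (median -0.02). The rises in that list were 4 without cHet replicate 4 and 1 without cHet replicate 1 or 2 or cKO replicate 1, 2 or 3. Mia, a small secreted protein, rose from 14 ± 2.13 to 24.4 ± 1.88 TPM (log2 difference 0.80 ± 0.14, adjusted p = 0.00604) and was the 1 call among 8 ependymal markers.

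Of 16 neuron markers 2 rose and 0 fell, against 2.41% and 2.6% of all genes, with a median log2 difference of 0.02. The rises were 3 without control replicate 1, 2 without cKO replicate 3 and 1 without any other single library. Syn1, a synaptic vesicle protein, rose from 137 ± 2.05 to 158 ± 6.82 TPM (log2 difference 0.21 ± 0.04, adjusted p = 0.0104), and Rbfox3, the NeuN antigen, had a call lost in 14 of 22 alternatives. Of 12 motor neuron genes 0 were called, and the median was 0.03. Mnx1, a motor neuron transcription factor, was at 3.12 ± 0.376 TPM in cHet and 3.62 ± 0.336 TPM in cKO (adjusted p = 0.367), and Ret was at 41.3 ± 0.853 and 43.4 ± 0.391 TPM (adjusted p = 0.281). Endothelial and pericyte markers gave 0 calls of 13 (median 0.04). Hox genes, which differ along the length of the cord, gave 1 call among 13 cervical and upper thoracic genes (Hoxb8, log2 difference 0.17 ± 0.03, adjusted p = 0.0129) and 0 among 9 lumbosacral ones.

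Of 12 mouse genes in which TDP-43 represses cryptic exons, a list from general knowledge, 1 rose and 2 fell, against 2.41% and 2.6% of all genes, and the median log2 difference was -0.01. Without cHet replicate 1 the rises were 2. Ppp6c, the catalytic subunit of a protein phosphatase (chromosome 2, 39194354 to 39226451, minus strand, GRCm38), was at 29.4, 30.05, 31.8 and 29.6 TPM in control, 29.8, 29.8, 32.9 and 26.6 TPM in cHet and 48.7, 47.8, 57.1 and 50.7 TPM in cKO, with no overlap (log2 difference 0.77 ± 0.07, adjusted p = 6.62e-05). Synj2bp, a mitochondrial outer membrane protein, fell from 17.3 ± 0.411 to 13.8 ± 0.212 TPM (log2 difference -0.32 ± 0.05, adjusted p = 0.00236), and Mib1, a ubiquitin ligase of Notch ligands, fell from 37.3 ± 2.08 to 30.9 ± 1.25 TPM (log2 difference -0.27 ± 0.05, adjusted p = 0.00592). Whether a cryptic exon was included cannot be read from 1 value per gene.

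Long-intron neuronal transcripts are known to need TDP-43. Of 12 such genes 1 fell, Nkain2 (log2 difference -0.32 ± 0.07, adjusted p = 0.0187), and its call was lost without cHet replicate 2 or 3 or cKO replicate 4 (adjusted p up to 0.0599). Of 12 genes linked to amyotrophic lateral sclerosis, most of them RNA-binding proteins, 1 fell, Tardbp itself, with 2 falls without cHet replicate 2 and 0 without cKO replicate 4. Stmn2, whose human transcript depends on TDP-43, was at 353 ± 16.5 TPM in cHet and 348 ± 16.6 TPM in cKO (adjusted p = 0.884).

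Cytosolic ribosomal proteins gave 0 of 30 (median -0.03), cytosolic chaperones 0 of 14 (median -0.03) and immediate early genes 0 of 10. Of 11 cell division genes 6 were measured and 0 called. For endoplasmic reticulum stress the median of cHet minus control was 0.22, and for cytosolic chaperones it was 0.17, larger in both lists than the cKO minus cHet median. This was not particular to them: it also held for ribosomal proteins (0.12 against -0.03) and nuclear cytochrome c oxidase (0.13 against 0.04). In other lists it did not, such as interferon response (-0.03 against 0.42). The difference between those medians was not tested, and the comparisons share the cHet mice. Medians of cKO minus control were also above 0 for endoplasmic reticulum stress (0.14), cytosolic chaperones (0.14), ribosomal proteins (0.08) and nuclear cytochrome c oxidase (0.16). Library sums of TPM were higher in cHet (1002460 ± 18688) than in control (967165 ± 12164), with an exact permutation p of 0.0286. The part of that offset in these medians was not tested.

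Some of the 15 largest rises and 15 largest falls lost their call under other settings. The rises of Ccnb1ip1, Vill, Chad and Bcl3 lost their call in 11, 10, 8 and 8 of 21 alternatives (adjusted p up to 0.106, 0.116, 0.0787 and 0.0736), and the falls of Ccdc33 and Ppp1r3g in 10 and 11 (up to 0.0972 and 0.115). Rasl12, a Ras-like GTPase, kept its call (log2 difference 1.02 ± 0.08, adjusted p = 3.75e-05), as did Txlnb (log2 difference -0.73 ± 0.14, adjusted p = 0.00773). Plekhb1 and Tmsb4x were among the 6 most abundant falls, with log2 differences of -0.17 ± 0.04 and -0.21 ± 0.04, and the call of Plekhb1 was lost in 4 of 22 alternatives.

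Males and females were set side by side within the contrast, with 2 mice of each sex in each group. The test of the sex by genotype difference called 0 of 15251 genes (limma, smallest adjusted p = 0.999, and 726 genes, 4.76%, at an unadjusted p under 0.05). For Gli1 the log2 difference was -1.43 in males and -2.13 in females, for Slc7a11 -1.06 and -1.14, and for Qprt 1.66 and 1.43. The interferon list had a median of 0.67 in males and 0.28 in females, and cholesterol synthesis -0.01 and -0.26. Other lists were closer, such as complement (0.29 and 0.33) and glycolysis (0.13 and 0.12). These medians carry no test, and 2 mice a sex and group limit their precision.

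**Figure D5:**
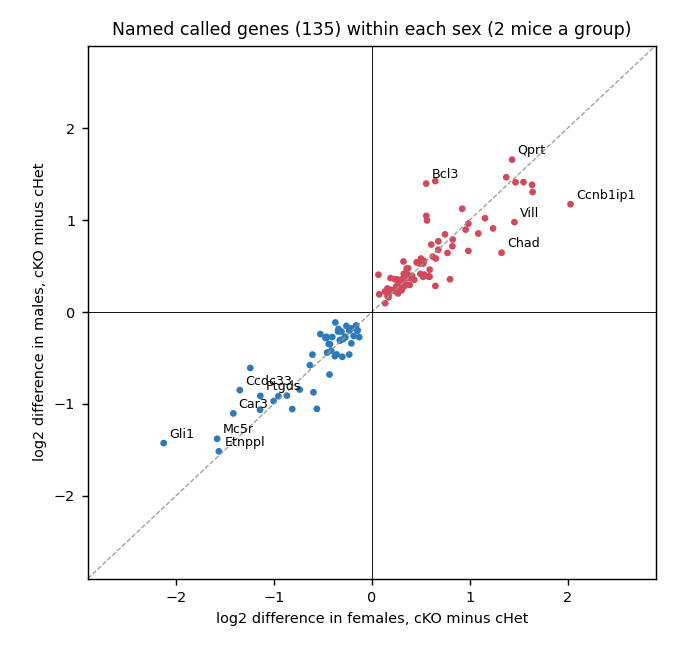
Each point is 1 of the 135 called genes named by the rule, with its log2 difference, cKO minus cHet, in females on the horizontal axis and in males on the vertical axis (2 mice a group each). Points lie in the upper right for rises and the lower left for falls, around the dashed line of equal differences.

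The authors' deposited table of the same comparison, made with sleuth, held 17847 genes. In it 674 genes had a likelihood ratio q-value under 0.05, 333 with an estimate above 0 and 341 below, and its Wald test gave 882. Of the 674 genes 575 (85.3%) were also called here, which is 75.2% of the 765, and all 575 had the same sign. The analyses share the 8 libraries, so this is no independent check. Genes with the smallest likelihood ratio q-values in the authors' deposited table, chosen after their values were seen, included Cxcl14, a chemokine, Elovl2, an elongase of long polyunsaturated fatty acids, and Pex5l, a partner of pacemaker channels. By the fit used here Cxcl14 rose from 79.6 ± 2.53 to 128 ± 5.45 TPM (log2 difference 0.68 ± 0.04, adjusted p = 7.61e-06) and Elovl2 rose from 11.8 ± 0.902 to 19.1 ± 0.681 TPM (log2 difference 0.67 ± 0.06, adjusted p = 1.13e-04), and Pex5l fell from 199 ± 2.18 to 149.8 ± 5.42 TPM (log2 difference -0.41 ± 0.03, adjusted p = 1.43e-05).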

How the data were processed

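RNA-seq of whole spinal cord from 12 mice was quantified with kallisto 0.44.0 and sleuth 0.30.0 on GRCm38, per the submitters' processing notes. The authors deposited 1 table of normalized TPM per gene and library, whose library sums differ and which is treated as a normalized expression signal. The authors' deposited comparison tables give q-values (a p-value adjusted for multiple testing) and Wald estimates on a natural log scale. Groups were taken from the labelled genotype, and the labels do not say whether mice were littermates. The p-values measure the spread between these mice.

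Here log2(TPM + 0.5) of the 15251 genes was fitted with limma 3.58.1 (R 4.3.3) as 3 groups over all 12 libraries, with an intensity trend and Benjamini-Hochberg adjustment over all genes. Sex by genotype used a fit with 6 cell means. Single library values were compared by exact permutation over 70 assignments (SciPy 1.17.1). In simulated data for this contrast on 15251 genes, with 50 genes changed at each size, 30% were recovered at a log2 change of 0.25, 64% at 0.5, 88% at 1 and 100% at 2, with 11 false calls. The simulated noise was normal, with the fitted SD of each gene, independent between genes and without a sex difference. These rates hold for that setting and can differ in the real data, where genes vary together. The named genes are Tardbp and Gfap, the 15 largest rises and 15 largest falls among called genes without overlap of groups, the 6 most abundant called genes in each direction, up to 5 called members of each of 41 lists (or its 2 with the smallest p), and the 5 leading genes of the sex test. Partners of these genes within a list, such as Kcnj10 or Ptch1, and the 3 genes from the authors' table were added after values were seen. The members and lists were chosen with earlier results of these data known. Coordinates are from GENCODE M21, which held 35471 of 36121 identifiers. Promoter windows are RefSeq. Some list members are counted but not reported here by name.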

Additional observations from a re-analysis of the deposited data

Results flagged for a closer look

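In a group of 4 libraries a single one was taken to stand apart when its gap to the next, as a share of the group's range, exceeded Dixon's 95% critical value for 4. Of 312 groups examined 23 had such a library, and chance gives about 1 in 20. Among cKO libraries that were the lowest of their group, replicate 4 stood apart in Tardbp (share 0.912) and Ccnb1ip1 (0.856). Replicate 1 did so in Etnppl (0.862), Mia (0.866) and Rplp2 (0.919), and replicate 3 in Slc7a11 (0.832). As the highest of the cKO libraries, replicate 3 stood apart in Chad (0.881), Ctsd (0.838) and Emp1 (0.860), replicate 1 in Pfkfb3 (0.859) and H2-Q4 (0.866), and replicate 4 in Fdft1 (0.831).

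Among cHet libraries, replicate 1 was the high one in Slc25a34 (0.854), Vill (0.848) and Chad (0.907). Replicate 3 was the high one in Rasl12 (0.835), Bcl3 (0.976) and mt-Nd5 (0.851) and the low one in Hspb1 (0.841). Replicate 4 was the high one in Ptgds (0.934) and Pdia4 (0.876) and the low one in Cx3cr1 (0.877), and replicate 2 was the high one in Aspa (0.877). In Slc7a11 the lowest cKO library, 1.36 TPM, lay close to the others.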

How the results depend on the processing

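Across 22 alternatives, 1 of them (copies of a gene added to its reference row) chosen after seeing the data, the count of called genes ranged from 525 with the 8 cKO and cHet mice only to 780 with median-of-ratios rescaling. Of the 135 named genes that were called, 93 kept the call in all alternatives run for them and 42 lost it in at least 1, with 0 changes of sign. With the 8 mice only 23 of the 135 lost it, and 263 genes fell in place of 397. Leaving out 1 library at a time gave 532 to 716 called genes, 241 (without cKO replicate 2) to 338 higher and 266 (without cKO replicate 4) to 403 lower. Without cHet replicate 3 the sex by genotype test called 1 gene, Hist2h2aa1, in place of 0. The difference in mitochondrially encoded share was 2.13 to 2.83 percentage points and that in Tardbp -26.4 to -19.7 TPM without 1 library (exact permutation p = 0.0571, the smallest that 3 against 4 can give). The cause of these changes was not tested. Rescaling moved the median of all genes by less than 0.1 on the log2 scale. No paired analysis was possible because the labels carry no replicate numbers that pair mice across genotypes.

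Depth is not known from TPM, so counting error at low levels cannot be given. Levels near or below 1 TPM, such as Qprt and Acox2 in cHet and Gli1 in cKO, are the least certain. The means of Acox2 in cHet and of Gli1 in cKO were under 1 TPM, so each passed the level filter through the other group.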

Other observations

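Some pairs of related genes among the named genes moved in opposite directions, while others, such as Pfkm and Pfkp or C1qa and C1qb, rose together. Opposite pairs were Slc1a2 and Slc1a3, Slc3a2 and Slc7a11, and Papss2 and Papss1. Their log2 differences were 0.30 and -0.61, 0.33 and -1.10, and 1.07 and -0.19. How many pairs of each kind there are was not counted. These pairs were picked after their values were seen, and no test of the difference within a pair was run.

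Slc22a4, an organic cation and ergothioneine transporter, rose from 25.1 ± 0.625 to 41.7 ± 2.05 TPM (log2 difference 0.72 ± 0.04, adjusted p = 7.61e-06) and is in none of the lists described. The 5 genes leading the sex by genotype test were Lca5, Chek2, Hist2h2aa1, Pcsk1n and Lpo, none of which passed it. For Lca5 the log2 difference was -0.65 in males and 0.66 in females. Of the 765 called genes 28 carry clone or predicted names and were counted but not named.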
